A study of Mus musculus with 12 samples.

Results

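The Ifi200 genes (also called p200, HIN-200 or PYHIN genes) form a cluster of related interferon-inducible genes on mouse chromosome 1. Here 9 of them were followed in cultured macrophages, namely Ifi203, Ifi204, Ifi205, Ifi206, Ifi207, Ifi209, Ifi211, Ifi213 and Mndal. They were taken by name from the table of raw gene counts, after its Ensembl identifiers had been matched to mouse gene symbols. All 9 were found among the 54232 genes of the table, and all 9 passed the count minimum that 16281 genes passed (at least 10 counts in at least 2 libraries). The family was chosen by measured values of these same libraries, in which Ifi206 and Ifi213 had stood out for their low counts with R788 (the R788 fold changes in each medium, and the counts in NB9464 TCM + R788 against NS). The R788 differences below are therefore a description. Tests are given for the comparisons of media and, for the other 7 genes, for how the R788 difference varied between media. The media comparisons of Ifi206 and Ifi213 use libraries that entered this choice. Their calls there are not independent of it, so no p is printed for them, and the counts of members called include them.

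Proteins of this family bind DNA through a HIN domain, and most also carry a pyrin domain through which they assemble with partners. Aim2, a relative in the same cluster, builds the inflammasome on DNA in the cytosol, while several Ifi200 proteins sit mainly in the nucleus and act on transcription. Ifi204 is the closest mouse relative in function to human IFI16 and passes a DNA signal to STING, the adaptor that switches on type I interferon. Interferon in turn raises transcription of the family through a factor that contains Stat2 and Irf9 and binds an interferon-stimulated response element (ISRE).

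The macrophages were bone marrow-derived macrophages (BMDMs) of C57BL/6 wild-type mice, grown for 5 days and then held for 24 h in 1 of 6 conditions with 2 libraries each. NS cells received neither tumor-conditioned medium (TCM) nor inhibitor. NB9464 TCM came from a MYCN-amplified murine neuroblastoma line and was collected over 48 h in DMEM without serum, and NBT3L TCM from a neuroblastoma line without MYCN amplification. R788 (fostamatinib), a prodrug of an inhibitor of the kinase Syk, was given at 500 nM alone, with NB9464 TCM or with NBT3L TCM. Each medium was that of 1 cell line, and the sources used here do not state how NBT3L TCM was collected, the medium that cells without TCM held in these 24 h, or the vehicle. In comparisons of TCM with NS, products of the tumor cells and a difference in base medium or serum therefore cannot be told apart. The methods give an age of 6 to 8 weeks for mice used for BMDMs, which were raised in RPMI with serum and M-CSF, and the sex of the mice is not given in the sources used here. The labels do not say whether the 2 libraries of a group came from separate cultures or animals, so the p-values measure only the spread between these libraries, which may be technical.

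Total gene counts ran from 44977847 to 56449685 per library. R788 replicate 8 stood apart, with 16149 genes detected at the highest total, against 17275 to 18343 in the other 11 libraries. The summed level of 9 macrophage markers was high in all 12 libraries (72606 to 86890 TPM, that is counts divided by gene length and scaled to the same total in each library), and none of these markers was at 0 throughout. Summed markers of T cells (0.115 to 2.78), B cells (0 to 1.24), dendritic cells (0.284 to 0.964) and neuroblastoma (0 to 1.35) were near 0. The neuroblastoma sum was 0 in NS and 0 to 0.0591 in R788. It was 0.449 to 0.513 in NB9464 TCM and 0.884 to 1.15 in NBT3L TCM. With R788 it was 1.31 to 1.35 in NB9464 TCM and 0.651 to 1.08 in NBT3L TCM. The sum of 4 fibroblast markers was higher with R788, at 19.6 to 24.2 against 8.57 to 10.7 in NS, 10.8 to 13.5 against 8.19 to 9.39 in NB9464 TCM and 18.1 to 19.3 against 9.72 to 10.9 in NBT3L TCM. The sum of 5 neutrophil and precursor markers moved with the media. It was 407 to 440 in NS, 651 to 699.6 in NB9464 TCM, 732 to 742 in NBT3L TCM and 282 to 412 in R788. With R788 it was 534 to 562 in NB9464 TCM and 533 to 549 in NBT3L TCM. The part of the neuroblastoma, fibroblast and neutrophil sums in the results was not tested. Since these are bulk libraries, fewer cells that express a gene and less RNA per cell cannot be told apart.

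The family's promoters were compared for sequence that members share. In the RefSeq table of promoters (GRCm38.p6, 250 bases before to 50 after a gene's start) 8 of the 9 members had an entry, all but Ifi204. The windows were searched on both strands for the ISRE core, spelled GAAA, then any 2 bases, then GAAA (TTTC, any 2 bases and TTTC on the other strand). It was found in 1131 of 32851 windows, or 3.44%, and in a window of each of the 8 members except Ifi209. The spelling of the core that the members held most often, GAAATCGAAA, was then sought in the 250 bases before each start. This exact core stood in 13 windows (0.04%). Of the genes that carry it, 7 belong to the cluster: the members Ifi203, Ifi206, Ifi207, Ifi213 and Mndal and the relatives Ifi208 and Ifi214. Since the spelling was taken from the members, its count in the cluster is a description and no test. The stretches around the core are printed below from 5′ to 3′ on each gene's strand, with the core or its aligned copy in capitals, because they show which genes share more than the core itself.
Ifi206 (chr1:173491319-173491388, minus strand): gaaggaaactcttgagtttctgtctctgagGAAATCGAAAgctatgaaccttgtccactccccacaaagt
Ifi213 (chr1:173599306-173599375, minus strand): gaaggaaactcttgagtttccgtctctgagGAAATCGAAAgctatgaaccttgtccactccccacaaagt
Ifi209 (chr1:173630750-173630819, plus strand): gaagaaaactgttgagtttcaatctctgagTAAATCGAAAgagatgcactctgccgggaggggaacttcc
Ifi207 (chr1:173741811-173741880, minus strand): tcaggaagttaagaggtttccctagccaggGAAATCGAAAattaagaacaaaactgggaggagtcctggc
Ifi211 (chr1:173913047-173913113, minus strand): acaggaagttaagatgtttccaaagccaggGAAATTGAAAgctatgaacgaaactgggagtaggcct
Ifi205 (chr1:174031850-174031919, minus strand): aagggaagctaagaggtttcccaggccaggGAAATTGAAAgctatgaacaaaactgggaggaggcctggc
Ifi203 (chr1:173942493-173942557, minus strand): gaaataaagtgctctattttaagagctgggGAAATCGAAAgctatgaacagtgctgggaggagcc
Mndal (chr1:173880204-173880233, minus strand): aagagctgggGAAATCGAAAgctatgaaca

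The Mndal stretch is limited to 30 bases and lies within an annotated exon, while the other stretches hold no exonic base. Counted from 1 at the 5′ end of GAAATCGAAA, the copy in Ifi211 and in Ifi205 differed by C6T and still matched the ISRE core. The copy in Ifi209 differed by G1T and did not match it. Aim2 and Ifi202b, the relatives at or near the ends of the cluster, had no match to the ISRE core in their windows. No member's window held the interferon gamma-activated site TTCNNNGAA, which 8.30% of all windows hold. The window of Ifi202b held that site, with its first base at -148 from the start. The 250 bases upstream of Mndal and Ifi203 were 89.3% identical, those of Ifi207 and Ifi211 85.0%, and those of Ifi206 and Ifi213 75.6%. A match is a stretch of letters and does not show that a factor bound it in these cells.

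Related genes can share reads, which bears on every value below. Of all windows of 150 bases along a gene's annotated transcripts, the share also found in another family gene was 46.4% for Ifi211 (most often shared with Ifi205), 12.6% for Ifi205, 9.28% for Ifi209, 6.77% for Ifi204, 2.14% for Ifi206, 1.61% for Mndal, 0.827% for Ifi203 and 0.223% for Ifi213. No such window of Ifi207, Aim2 or Ifi202b was shared. Ifi203 and Mndal also overlap on the same strand by 37 exonic bases. Over windows of 50 bases the share was 72.8% for Ifi211, 33.4% for Ifi209, 19.2% for Ifi204, 18.6% for Ifi205, 17.7% for Mndal, 15.8% for Ifi206, 15.6% for Ifi213, 12.2% for Ifi203 and 5.39% for Ifi207. The counts of Ifi211 are thus the least certain at either length.

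In NS cells the members differed widely in level. On this per-length scale Ifi207 stood at 198 ± 6.90 TPM (mean ± SD, n = 2) and Ifi204 at 179 ± 13.9, and the ranges of their 2 libraries were close to each other. Mndal, which is named after the human myeloid nuclear differentiation antigen, followed at 114 ± 5.12 and Ifi211 at 101 ± 0.199. Next came Ifi209 (80.4 ± 4.18) and Ifi203 (56.5 ± 4.38). The other 3 were low, with Ifi206 at 18.9 ± 4.84, Ifi213 at 8.55 ± 0.0435 and Ifi205 at 1.55 ± 0.339. Ifi207 alone made up 26.1% of the members' summed per-length level in NS and 45.4% in NB9464 TCM + R788, as it lost less than the others.

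Ifi206 and Ifi213, the members with the lowest per-length levels in NS after Ifi205, had the deepest losses with TCM and R788 together. All levels that follow are counts divided by DESeq2 size factors, given for the 2 libraries of a group. Ifi213 stood at 907 and 929 in NS, 84.2 and 79.9 in NB9464 TCM, 99.0 and 135 in NBT3L TCM and 129.97 and 147 in R788. With R788 it was at 0 and 0 in NB9464 TCM and 0 and 12.1 in NBT3L TCM. Each treated library was thus far below both NS libraries, and 3 of the 4 with TCM and R788 held no read of Ifi213. Taking 3 counts per library as the limit that a count of 0 allows, Ifi213 in NB9464 TCM + R788 was at least 26.0-fold lower than in NB9464 TCM. That limit is 0.344% of the NS level, and it covers counting error only.

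Ifi206 had the same order of groups with 1 exception, a higher level in NBT3L TCM than in R788. Its libraries held 1055 and 755 in NS, 78.4 and 107 in NB9464 TCM, 287 and 275 in NBT3L TCM and 151 and 113 in R788. With R788 they held 0 and 6.66 in NB9464 TCM and 14.8 and 3.01 in NBT3L TCM, or 0.368% and 0.987% of the NS mean. The NS libraries differed from each other by a larger ratio for this gene than for any other member.

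Ifi209, Ifi203 and Mndal formed a middle group, with NB9464 TCM leaving 30.8% to 35.3% of the NS level. Ifi209 stood at 4572 and 4383 in NS, 1596 and 1568 in NB9464 TCM, 1646 and 1480.3 in NBT3L TCM, 961 and 1064 in R788, 355 and 293 in NB9464 TCM + R788 and 247 and 259 in NBT3L TCM + R788. Its ranges in the 2 media overlapped, and with R788 added 7.24% and 5.65% of the NS level were left. Ifi203 stood at 6179.8 and 5713 in NS, 1926 and 1736 in NB9464 TCM, 2386 and 2294 in NBT3L TCM, 2320.3 and 2459 in R788, 523 and 573 in NB9464 TCM + R788 and 789 and 699 in NBT3L TCM + R788. For this gene the ranges of R788 alone and of NBT3L TCM alone overlapped. Mndal stood at 6571 and 6359.6 in NS, 2182 and 2213 in NB9464 TCM, 2561 and 2793 in NBT3L TCM, 2978 and 3063 in R788, 880.3 and 933 in NB9464 TCM + R788 and 892 and 1050.03 in NBT3L TCM + R788. Mndal was the member that kept most with R788 alone, at 46.7% of NS.

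Ifi204, Ifi207 and Ifi211 kept more of their level under TCM. Ifi204 stood at 10414 and 9626 in NS, 4469 and 4654 in NB9464 TCM, 7104 and 7003 in NBT3L TCM, 2692 and 2872 in R788, 1196 and 1469.5 in NB9464 TCM + R788 and 1735 and 1742 in NBT3L TCM + R788. R788 alone took it lower than either medium alone. Ifi207, a member reported to act with STING against retroviruses, stood at 10734 and 10541 in NS, 5777 and 5257 in NB9464 TCM, 5993 and 6259 in NBT3L TCM, 4381 and 4688 in R788, 2814 and 2997 in NB9464 TCM + R788 and 2616 and 2745 in NBT3L TCM + R788. It was the member with the narrowest span, keeping 25.2% to 27.3% of its NS level with TCM and R788 together. Ifi211 stood at 2779 and 2875 in NS, 1505 and 1425 in NB9464 TCM, 2374 and 2414 in NBT3L TCM, 651 and 582 in R788, 397 and 379.9 in NB9464 TCM + R788 and 521 and 660.2 in NBT3L TCM + R788. NBT3L TCM left 84.7% of Ifi211, the highest share kept by any member in any treated group.

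Ifi205 was counted in few reads. It stood at 116 and 87.2 in NS, 11.5 and 2.79 in NB9464 TCM, 70.5 and 37.9 in NBT3L TCM, 47.3 and 25.5 in R788, 23.9 and 9.997 in NB9464 TCM + R788 and 8.48 and 2.01 in NBT3L TCM + R788. Every treated library was below both NS libraries, but several of the treated groups overlapped one another.

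**Figure D1:**
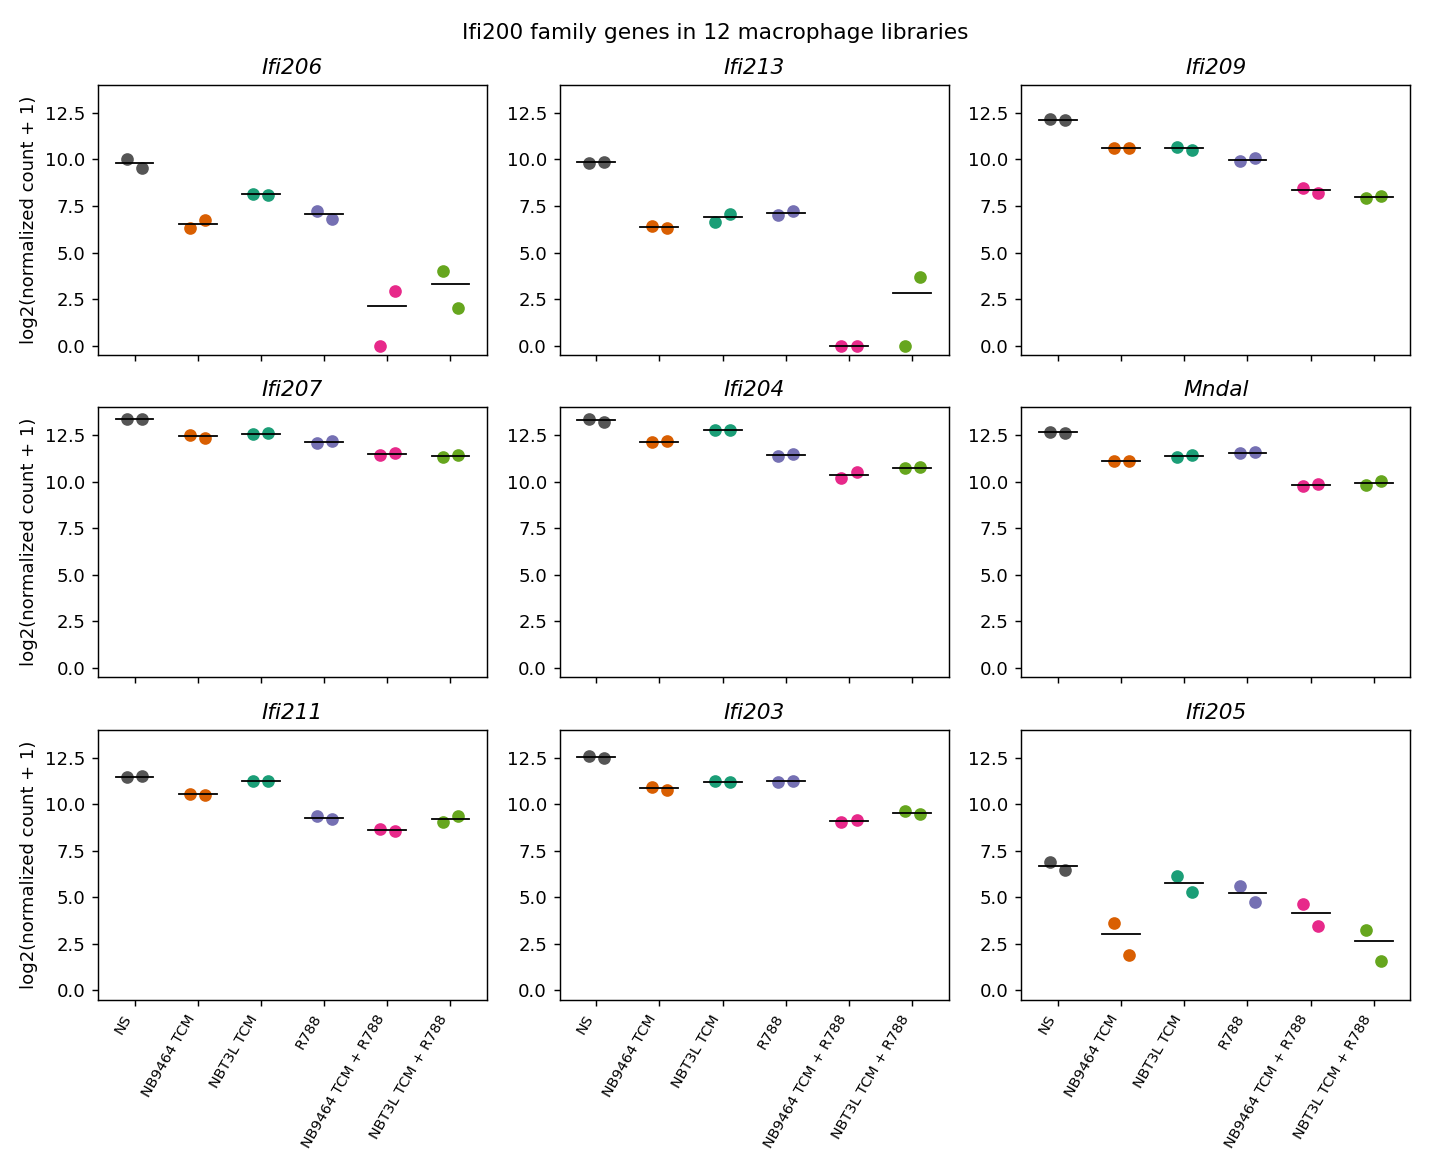
Level of the 9 Ifi200 genes in each of the 12 libraries. The vertical axis is log2 of the normalized count plus 1, each point is 1 library, and the horizontal line is log2 of the group mean plus 1 (2 libraries per group). Both NS libraries are the highest for each gene, and Ifi213 reaches 0 in 3 libraries with TCM and R788.

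The whole set was lower in NB9464 TCM than in NS. All 9 members fell against NS (DESeq2 Wald test, Benjamini-Hochberg adjusted over 16281 genes), beside 16.9% of all genes tested that were called lower and 17.2% called higher. The members' median log2 fold change was -1.56, and that of all genes tested was 0.02. Ifi205 (-3.83 ± 0.84, adjusted p = 3.11e-05), Ifi213 (-3.48 ± 0.33) and Ifi206 (-3.29 ± 0.34) fell most, given as log2 fold change ± SE. Ifi203 changed by -1.70 ± 0.10 and Mndal by -1.56 ± 0.09. Ifi209 changed by -1.501 ± 0.12 and Ifi204 by -1.14 ± 0.09. The smallest falls were those of Ifi207 (-0.95 ± 0.07, adjusted p = 4.91e-36) and Ifi211 (-0.95 ± 0.12, adjusted p = 4.27e-13). The edgeR quasi-likelihood test also called all 9, Ifi206 and Ifi213 included.

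In NBT3L TCM 7 of the 9 were lower than in NS, beside 17.3% of all genes called lower and 18.0% called higher. Ifi206 and Ifi213, which entered the choice of the family, are in this count. The median of the members was -1.27, and that of all genes tested was 0. Ifi213 (-2.97 ± 0.33) fell most, followed by Ifi206 (-1.69 ± 0.34) and Ifi209 (-1.52 ± 0.12, adjusted p = 5.63e-37). Ifi203 (-1.35 ± 0.10), Mndal (-1.27 ± 0.09), Ifi207 (-0.80 ± 0.07) and Ifi204 (-0.51 ± 0.09) also fell. Ifi205 (-0.91 ± 0.77, adjusted p = 0.409) and Ifi211 (-0.24 ± 0.12, adjusted p = 0.127) did not pass the test. The call of Ifi206 was lost without NBT3L TCM replicate 5 or replicate 6, with the fold change at -1.72 and -1.66. That of Ifi213 was lost without NBT3L TCM replicate 5 or NS replicate 2.

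The 2 media were then compared with each other, since they came from lines with and without MYCN amplification. In NB9464 TCM 5 members, Ifi206 among them, were lower than in NBT3L TCM, beside 5.72% of all genes called lower and 3.69% called higher. Ifi206 (-1.60 ± 0.35), Ifi211 (-0.71 ± 0.13, adjusted p = 7.03e-07) and Ifi204 (-0.63 ± 0.09, adjusted p = 1.06e-10) differed most. Ifi203 (-0.35 ± 0.10, adjusted p = 0.00749) and Mndal (-0.28 ± 0.10, adjusted p = 0.027) differed less. Mndal did not pass with edgeR (adjusted p = 0.0843) and was lost with any of the 4 libraries of this comparison left out. Ifi206 was lost likewise, and Ifi203 without NB9464 TCM replicate 4 or either NBT3L TCM library. Ifi209 (0.02 ± 0.12, adjusted p = 0.96) and Ifi207 (-0.15 ± 0.07, adjusted p = 0.194) did not pass the test, and Ifi213 (-0.52 ± 0.34) was not called. For Ifi205 the log2 difference was -2.93 ± 0.85, and DESeq2 gave it no adjusted p at the count minimum used.

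R788 stood with lower levels of the family in each medium. The fold changes are a description with no test, because the members were chosen by R788 differences. Without TCM the log2 fold changes ran from -2.78 to -1.10 with a median of -1.85. Ifi206 (-2.78 ± 0.34) and Ifi213 (-2.73 ± 0.32) were the lowest, then Ifi211 (-2.20 ± 0.13), Ifi209 (-2.14 ± 0.12) and Ifi204 (-1.85 ± 0.09). Ifi205 (-1.48 ± 0.77), Ifi203 (-1.31 ± 0.10), Ifi207 (-1.23 ± 0.07) and Mndal (-1.10 ± 0.09) were lowered least. Without R788 replicate 8, the library with the fewest genes detected, they ran from -2.82 to -1.10 with a median of -1.90.

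Within NB9464 TCM the R788 difference was -4.87 ± 0.68 for Ifi206, -2.28 ± 0.13 for Ifi209, -1.92 ± 0.14 for Ifi211, -1.78 ± 0.09 for Ifi204 and -1.74 ± 0.11 for Ifi203. It was -1.28 ± 0.10 for Mndal and -0.93 ± 0.08 for Ifi207. Ifi213, with no counts, has only the bound given above. Ifi205 differed in sign (1.26 ± 0.87), from a level of 2.79 to 11.5 normalized counts in NB9464 TCM. Within NBT3L TCM it was -4.99 ± 0.48 for Ifi206, -4.25 ± 0.53 for Ifi213, -3.38 ± 0.89 for Ifi205, -2.62 ± 0.13 for Ifi209, -2.02 ± 0.09 for Ifi204, -2.02 ± 0.13 for Ifi211, -1.65 ± 0.11 for Ifi203, -1.46 ± 0.10 for Mndal and -1.19 ± 0.08 for Ifi207.

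**Figure D2:**
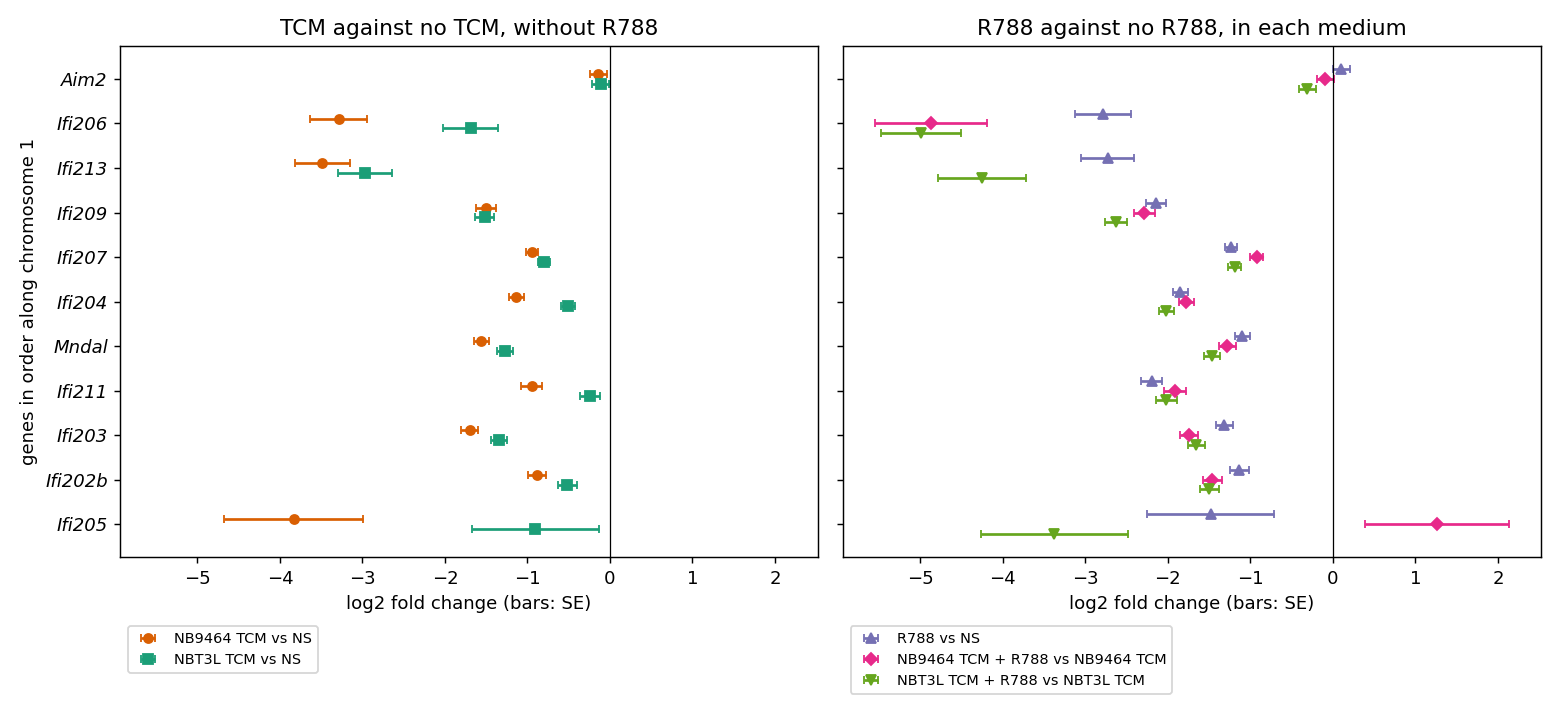
Log2 fold changes (points) with SE (bars) of the 9 members and of Aim2 and Ifi202b, in their order along chromosome 1. The left panel compares each TCM with NS and the right panel compares R788 with no R788 in each medium. Nearly all points of the members are left of 0, Aim2 stays near 0, and Ifi213 in NB9464 TCM + R788 is not drawn since it had no counts there.

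The R788 difference was then compared between the 3 media. Between NB9464 TCM and no TCM it differed for Ifi203 (-0.43 ± 0.15, adjusted p = 0.0307), for which R788 took more away in NB9464 TCM, and for Ifi207 (0.30 ± 0.11, adjusted p = 0.0303), for which it took less away. Neither passed with edgeR (adjusted p = 0.0592 and 0.0662). The call of Ifi203 was lost without NS replicate 1 or 2, NB9464 TCM replicate 3, R788 replicate 8 or NB9464 TCM + R788 replicate 9 (adjusted p = 0.0559 to 0.211, DESeq2). That of Ifi207 was lost without NS replicate 1 or 2, NB9464 TCM replicate 4, R788 replicate 7 or NB9464 TCM + R788 replicate 10 (0.0776 to 0.185). The other 5 members tested here did not pass, with Ifi205 at 2.74 ± 1.17, adjusted p = 0.095 and Ifi204, Ifi209, Ifi211 and Mndal between -0.18 and 0.28. For Ifi206, a value with no test, it was -2.09 ± 0.76. Of all genes tested, 6.26% were called lower and 6.22% higher in this comparison.

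Between NBT3L TCM and no TCM none of the 7 passed, with Ifi209 (-0.48 ± 0.18, adjusted p = 0.0511) and Mndal (-0.36 ± 0.14, adjusted p = 0.0533) closest to the threshold, beside 4.96% of all genes lower and 5.17% higher. With edgeR also none passed. At an unadjusted p under 0.05 there were 3 of the 7, all lower (DESeq2), beside 9.43% of all genes lower and 10.6% higher at that limit. Between NB9464 TCM and NBT3L TCM, Ifi205 alone passed (4.63 ± 1.25, adjusted p = 0.033, against 0.247 with edgeR), beside 0.424% of all genes lower and 0.283% higher. That difference rests on 2.01 to 70.6 normalized counts per library.

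Adding the 9 members per library removes the effect of reads moved between them. The summed normalized count was 42297 ± 1455 in NS (SD, n = 2), and 41.0% of this was left in NB9464 TCM, 53.4% in NBT3L TCM and 34.7% in R788. With TCM and R788 together 15.2% was left in NB9464 TCM and 16.5% in NBT3L TCM. On the per-length scale the sum went from 758 in NS to 95.003 and 99.9 in these groups. The order of the groups was the same on both scales, although NB9464 TCM and R788 lay close together per length, at 272 and 269. Without Ifi207, the most abundant member, 37.3% was left in NB9464 TCM, 32.0% in R788, 11.1% in NB9464 TCM + R788 and 13.6% in NBT3L TCM + R788.

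**Figure D3:**
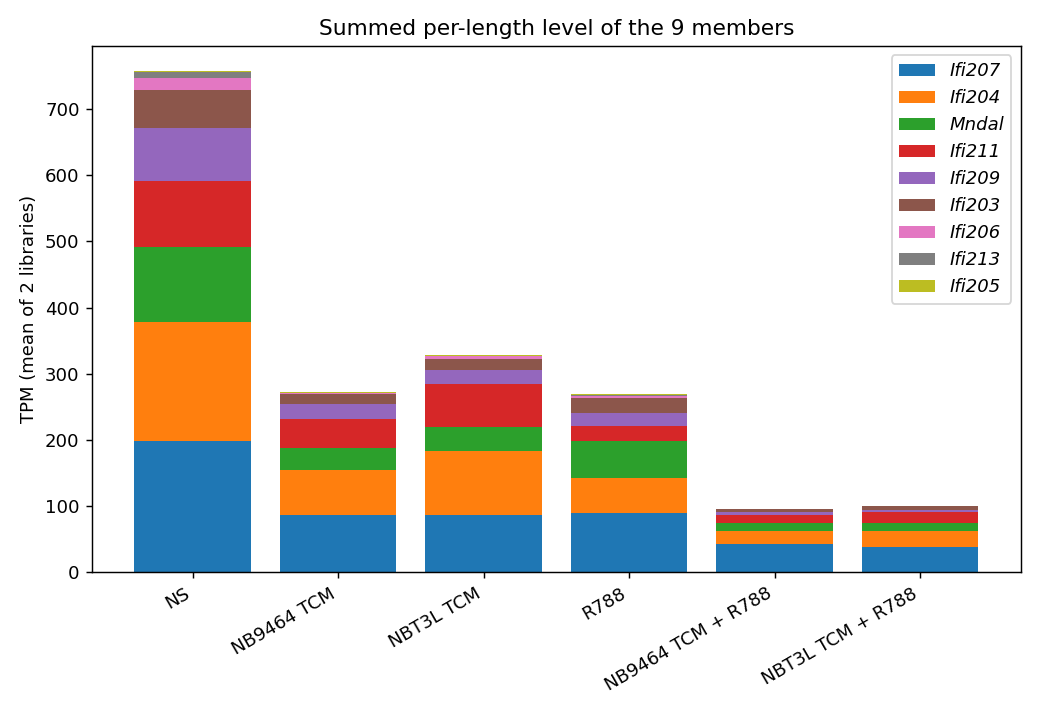
Summed per-length level of the 9 members in each group. Bars are means of 2 libraries in TPM, stacked by gene and starting at 0. The sum is 758 in NS and 95.003 in NB9464 TCM + R788, where Ifi207 makes up 45.4%.

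The cluster spans chr1:173350879-174031810 (GRCm38, GENCODE) from Aim2 to Ifi205. Among the 9 members the deepest losses with TCM and R788 together were at Ifi206 (chr1:173468485-173491041) and Ifi213 (chr1:173566283-173599274). These lie near each other with Ifi214 between them, and Ifi209 follows at chr1:173630917-173647928. The relatives Ifi208 and Ifi214, with few counts, were also low. Ifi208 was at 0% of NS in NB9464 TCM + R788 and 2.16% in NBT3L TCM + R788, and Ifi214 at 9.19% and 0.653%. Ifi207 (chr1:173723427-173741747), the member that kept most with TCM and R788, and Ifi204 (chr1:173747293-173766943) lie side by side. Ifi211 (chr1:173896345-173913046) lies within the annotated span of Mndal (chr1:173849126-173942491), and most of Ifi203 (chr1:173920407-173942672) lies within that span too. Ifi205 (chr1:174011998-174031810) is at the end of the cluster.

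The relatives outside the named set differed among themselves. Aim2, just before Ifi206, kept 90.7% of its NS level in NB9464 TCM, 92.5% in NBT3L TCM and 107% in R788, and 74.6% in NBT3L TCM + R788. It stood at 2144 and 2368 in NS and at 2031 and 1807 in NB9464 TCM + R788. Aim2 did not pass the test in NB9464 TCM (-0.14 ± 0.10, adjusted p = 0.317) or NBT3L TCM (-0.11 ± 0.10, adjusted p = 0.444). Ifi202b, which encodes an inhibitor of Aim2 that lacks the pyrin domain, was lower in each treated group than in NS. It fell in NB9464 TCM (-0.89 ± 0.11, adjusted p = 4.23e-14) and NBT3L TCM (-0.52 ± 0.11, adjusted p = 2.41e-05), and 45.6% of its NS level was left in R788 and 19.7% in NB9464 TCM + R788. The pseudogene Ifi203-ps fell in NB9464 TCM (-1.61 ± 0.41, adjusted p = 0.000391) and NBT3L TCM (-1.65 ± 0.41, adjusted p = 0.000279). Ifi208 and Ifi214 were low, with at most 59.7 and 89.1 normalized counts in any library, and neither passed the test in either medium. Of 37 other genes within 300000 bases of the cluster 28 had no count in any library and 1 was tested, so the cluster's flanks gave no comparison.

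**Figure D4:**
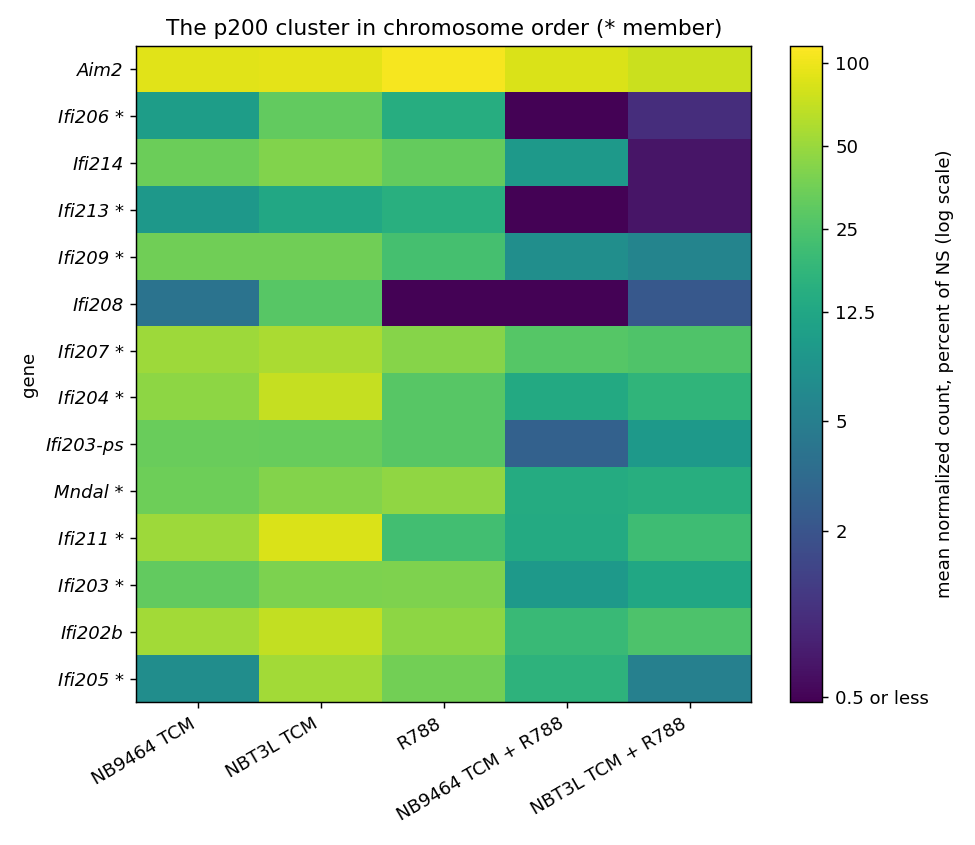
Mean normalized count of each gene of the cluster in the 5 treated groups, as a percent of its NS mean on a log color scale (2 libraries per group; values of 0.5% or less share 1 color). Rows follow the order along chromosome 1, and asterisks mark the 9 members. Aim2 stays between 74.6% and 107%, while among the members Ifi206 and Ifi213 are darkest with TCM and R788. Ifi208, at 0% in R788 and in NB9464 TCM + R788, and Ifi214 rest on few counts.

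The genes around DNA sensing moved in both directions. Of 20 tested genes of a DNA sensing list, 9 fell and 5 rose in NB9464 TCM, and the same numbers were called in NBT3L TCM. Of all genes tested, 16.9% were called lower and 17.2% higher in NB9464 TCM, and 17.3% and 18.0% in NBT3L TCM. Cgas, which makes the messenger that activates STING, fell in NB9464 TCM (-1.01 ± 0.17, adjusted p = 1.05e-08) and NBT3L TCM (-0.71 ± 0.17, adjusted p = 0.000108). Tmem173, which encodes STING itself, fell in both as well (-1.17 ± 0.13, adjusted p = 1.35e-17 and -1.74 ± 0.14, adjusted p = 4.31e-36). The kinase gene Ikbke rose (1.57 ± 0.06, adjusted p = 1.27e-177 in NB9464 TCM), as did Pycard, the adaptor of the Aim2 inflammasome (0.85 ± 0.09, adjusted p = 2.03e-18). Tbk1, the kinase that STING engages, was 0.17 ± 0.07 higher in NB9464 TCM (adjusted p = 0.041). Zbp1, a sensor of Z-form nucleic acid, fell in NB9464 TCM (-0.82 ± 0.13, adjusted p = 1.25e-09) and did not pass the test in NBT3L TCM (0.03 ± 0.13, adjusted p = 0.901). The list median was -0.18 and -0.10 in these comparisons. With R788 the list had 8 genes lower and 3 higher in cells that had no TCM (15.0% and 11.6% of all genes tested), 5 and 0 in those given NB9464 TCM (8.70% and 5.79%), and 5 and 1 in those given NBT3L TCM (7.24% and 5.33%). Cgas stood at -0.97 ± 0.17, -0.91 ± 0.17 and -1.01 ± 0.17 there, and Tmem173 at -0.36 ± 0.13, -0.09 ± 0.14 and 0.36 ± 0.14. Zbp1, which is also on the list of interferon-stimulated genes below, was lower by more, at -2.48 ± 0.13, -2.89 ± 0.14 and -3.035 ± 0.135.

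The interferon pathway upstream of the family was also measured. Of 17 tested genes of an interferon signalling list, 9 fell and 5 rose in NB9464 TCM (16.9% and 17.2% of all genes tested). In NBT3L TCM 6 fell and 7 rose (17.3% and 18.0%). Of the genes for the factor that binds the ISRE, Stat2 fell in NB9464 TCM (-0.94 ± 0.06, adjusted p = 1.04e-47) and NBT3L TCM (-0.44 ± 0.06, adjusted p = 5.37e-11), and Irf9 fell in NB9464 TCM (-0.41 ± 0.08, adjusted p = 4.09e-07). Irf7, a factor that amplifies type I interferon, fell by more (-1.73 ± 0.06, adjusted p = 3.36e-192 and -1.14 ± 0.06, adjusted p = 1.81e-83), while Socs3, a feedback inhibitor of cytokine receptors, rose (5.24 ± 0.18, adjusted p = 1.16e-180 and 5.41 ± 0.18, adjusted p = 1.21e-192). With R788 the list had 8 genes lower and 3 higher in cells without TCM (15.0% and 11.6% of all genes tested). It had 6 and 5 in cells given NB9464 TCM (8.70% and 5.79%), and 7 and 3 in cells given NBT3L TCM (7.24% and 5.33%). Irf7 stood at -2.63 ± 0.06, -2.80 ± 0.07 and -2.63 ± 0.06 there, and Stat2 at -1.10 ± 0.06, -1.34 ± 0.07 and -1.46 ± 0.07.

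A list of 32 interferon-stimulated genes outside the cluster was measured in the same comparisons. This list, like the DNA sensing and interferon signalling lists, was chosen with earlier results of these data known. The counts of genes called in these lists are therefore a description. All 32 fell in NB9464 TCM, beside 16.9% of all genes tested, with a median of -0.97 against -1.56 for the members. In NBT3L TCM 18 fell and Dhx58 rose, beside 17.3% and 18.0% of all genes, with a median of -0.37 against -1.27. Between the media 25 were lower in NB9464 TCM and Ms4a4c was higher, beside 5.72% and 3.69% of all genes. The median there was -0.57 against -0.52. The medians of the list for R788 were -1.88 in cells without TCM, -2.01 for NB9464 and -1.89 for NBT3L medium, beside -1.85, -1.78 and -2.02 for the members, and with Ifi213 at its bound the second of these stays the same. The difference between the list and the members was not tested.

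The 8 members with a mean of at least 50 normalized counts followed each other over the 12 libraries, with Pearson r between 0.791 and 0.991 in 28 pairs (median 0.926). Ifi205, the member below that mean, followed the others less closely, with r from 0.516 (Ifi211) to 0.711 (Mndal). The points share the 6 treatments, so these values describe the groups as much as the genes. Among 10704 genes outside the family with a mean of at least 100 normalized counts, those most like the mean profile of the members were Oasl2 (r = 0.993), Slfn1 (0.991), Stat2 (0.990), Gm8995 (0.990), Nlrc5 (0.990), Oas3 (0.989), Il7r (0.989) and Gbp3 (0.987). Oasl2 stood at a mean of 18652 in NS and 654 in NB9464 TCM + R788, and Slfn1 at 757 and 16.8. Within the cluster r was 0.994 for Ifi202b, 0.928 for Ifi203-ps, 0.838 for Ifi214, 0.693 for Ifi208 and 0.656 for Aim2.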

How the data were processed

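RNA of BMDMs was enriched for poly(A) and sequenced in paired ends in 12 libraries, 2 per group, per the labels, whereas the study's methods describe single reads in triplicate; the labels were followed. The authors deposited raw counts per Ensembl gene, and these deposited counts were used as they stand. The submitters' processing notes name STAR 2.6.1d, Salmon 1.4.0, SAMtools 1.9, Picard 2.26, MultiQC 1.11 and the mm10 build. Per the study's methods, reads were mapped with STAR and quantified with Salmon. The strand setting and the handling of shared reads are not given in the sources used here. Of the 54232 identifiers 54165 were matched to GENCODE.

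Libraries were grouped by their titles. DESeq2 1.42.0 in R 4.3.3 was fitted on all 12 libraries with 6 group means, after removing genes that reached 10 counts in fewer than 2 libraries, with unshrunken log2 fold changes and a Benjamini-Hochberg adjusted p under 0.05 as the threshold. edgeR 4.0.16 (quasi-likelihood, TMM) was an alternative, as were other scaling, filters, halved counts, a 2-fold minimum, only the compared libraries, and leaving out each library. Tested on simulated data, DESeq2 made more false calls than its threshold allows and edgeR fewer than DESeq2, so both are given where they differ. Per-length levels used the gene lengths deposited beside the counts. The members and the gene lists were chosen with earlier results of these data known. All members are named, with relatives of the cluster, the lists' genes whose role was known, and the 8 genes most like the members' mean profile. Sequences are from RefSeq (GRCm38.p6), searched with Python 3.11.15 and Biopython 1.88.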

Additional observations from a re-analysis of the deposited data

Results flagged for a closer look

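In 3 cases the R788 difference of a member differed between media by the test of that difference. For Ifi203 the R788 difference was more negative in NB9464 TCM than without TCM by -0.43 ± 0.15 (log2, SE, adjusted p = 0.0307 with DESeq2), and edgeR gave an adjusted p of 0.0592. For Ifi207 it was less negative in NB9464 TCM than without TCM by 0.30 ± 0.11 (adjusted p = 0.0303 with DESeq2), and edgeR gave 0.0662. For Ifi205 it was 4.63 ± 1.25 higher in NB9464 TCM than in NBT3L TCM (adjusted p = 0.033 with DESeq2), and edgeR gave 0.247. The Ifi205 value rests on at most 70.6 normalized counts per library, and 12.6% of its windows of 150 bases are shared with other family genes, whose part in the result was not tested.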

How the results depend on the processing

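With 2 libraries per group, the falls in NB9464 TCM and NBT3L TCM kept their direction for every member under every alternative run, with 7 to 9 and 5 to 8 members called. Of the tested fold changes under all alternatives, 489 kept direction and side of the threshold, 34 lost it, 12 gained it and 6 turned, while 17 had no adjusted p from DESeq2 and are not counted. Between the media, 5 members were called, 1 with a 2-fold minimum and 2 to 4 with 1 library left out. For the R788 difference in NB9464 TCM against no TCM, 2 of the 7 members tested were called, 0 with a 2-fold minimum, edgeR or only the compared libraries, and 0 to 2 with 1 library left out (0 without either NS library). For NBT3L TCM against no TCM, 0 were called, 2 at a mean of at least 50 counts, 1 with only the compared libraries and 0 to 1 with 1 left out (1 without R788 replicate 7 or NBT3L TCM + R788 replicate 12). For NB9464 TCM against NBT3L TCM, 1 was called (Ifi205), and 0 with TMM scaling, halved counts, edgeR, a mean of at least 50 counts (which drops Ifi205) or only the compared libraries, and 0 to 1 with 1 left out. Leaving out Ifi207, the summed count was 37.3% of NS in NB9464 TCM, 32.0% in R788, 11.1% in NB9464 TCM + R788 and 13.6% in NBT3L TCM + R788. The 6 tested values that turned, and 4 values of Ifi206 and Ifi213 that have no test, did so with 1 library left out. Over the libraries left out, Ifi209 between the media ran from -0.058 to 0.093. The difference of R788 differences ran from -0.087 to 0.213 for Ifi204 in NB9464 TCM against no TCM, and in NBT3L TCM against no TCM from -0.012 to 0.087 for Ifi207 and from -0.003 to 0.339 for Ifi211. In NB9464 TCM against NBT3L TCM it ran from -0.174 to 0.001 for Ifi203, -3.99 to 1.673 for Ifi206 (with -0.064 and -0.628 between), -0.056 to 0.286 for Ifi211 and -5.445 to 0.504 for Ifi213. Ifi211 in NBT3L TCM against NS passed with only the compared libraries (adjusted p = 0.0341, DESeq2), and Ifi205 between the media passed with TMM scaling, no count filter or only the compared libraries (0.00754 to 0.0143, DESeq2; 0.0568 with edgeR). The cause was not tested. Where 1 library is left out, its partner is assumed to vary like the other groups. Depth limits Ifi205, Ifi206 and Ifi213, whose libraries with TCM and R788 held 0 to 24 counts.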
